A study of Drosophila melanogaster with 8 samples.

Results

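RNA from families of transposable elements (TEs) was compared between Drosophila melanogaster ovaries in which both Piwi and Dcr2 were depleted (piwi-sKD,dcr2-sKD) and ovaries in which Piwi was depleted alone (piwi-sKD,ctrl-sKD). All families above 0 in at least 1 of these samples were taken, which left 110 of the 111 families listed. The one left out, Penelope, was listed at 0 in every sample. Families that the deposited lists call by a number alone are written with DM before it, as in DM412. Each group had 2 biological replicates, and these are 4 of the 8 samples of the series. The question was whether Dcr2 still limits TE RNA once Piwi is depleted in the follicle cells, the somatic cells that surround the germline.

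The piwi-sKD,dcr2-sKD flies carried tj-GAL4 over + with GAL80[ts] sh-piwi over sh-dcr2. The piwi-sKD,ctrl-sKD flies carried the same tj-GAL4 and the same GAL80[ts] sh-piwi chromosome over sh-w, a hairpin against the eye colour gene white. The hairpin against piwi, the driver and the thermosensitive GAL80, which blocks GAL4 in the cold, were thus shared by both groups. Both were labelled as grown at 20°C and kept at 25°C for the last 5 days, although the 4 library names carry a 28 in the place that holds the temperature in the rest of the series. The age of the flies was not stated in the labels. The tj-GAL4 driver works in follicle cells, whereas RNA was taken from pools of whole ovaries and enriched for polyA, so germline RNA was measured along with it and fewer cells of a type cannot be told apart from less RNA per cell. The groups came from different crosses, and an effect of the cross cannot be told apart from that of the Dcr2 hairpin. The counts used here list TE families alone, so piwi, Dcr2 and cell type markers could not be checked in them. The paper checked the depletion of Dcr2 and Piwi by immunofluorescence.

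TEs are copied or moved within a genome by their own enzymes. Endogenous retroviruses (ERVs, used here for all LTR retrotransposons) and non-LTR retrotransposons both pass through an RNA that is reverse transcribed, while DNA elements are cut out and pasted by a transposase. In follicle cells, Piwi loaded with piRNAs silences ERVs at transcription, and many of these piRNAs come from flamenco (flam), a locus packed with ERV remnants. Dcr2 works by another route: it cuts double-stranded RNA into siRNAs, which guide Ago2 to cleave matching transcripts.

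RNA levels are given as normalised counts, that is, reads assigned to a family divided by the size factor of the sample. The samples held 343458 and 283187 TE reads in piwi-sKD,dcr2-sKD, against 179578 and 190942 in piwi-sKD,ctrl-sKD, with size factors of 0.931 to 1.07. A count of 3 reads, taken as the smallest amount that can be told from none, corresponded to 2.79 to 3.22 normalised counts, and this floor covers counting error only. Replicates differed by a median of 0.141 on the log2 scale in piwi-sKD,dcr2-sKD and of 0.175 in piwi-sKD,ctrl-sKD, over the 105 families that averaged 10 normalised counts or more.

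The summed TE RNA was higher with Dcr2 depleted, and ERVs made up 93.2% of the excess. In piwi-sKD,ctrl-sKD, ERVs already held a mean of 82.5% of the TE signal. The summed TE signal was 319798 and 294253 normalised counts in piwi-sKD,dcr2-sKD, against 192945 and 179192 in piwi-sKD,ctrl-sKD, a ratio of 1.65 with an SD of 0.106 over the 4 pairs of single samples. Without Tirant, an ERV with much of the signal in both groups, the sums were 262499 and 230601 in piwi-sKD,dcr2-sKD and 129386 and 114046 in piwi-sKD,ctrl-sKD, a ratio of 2.03 with an SD of 0.212. The 4 pairs share samples, so these SDs are not a spread over 4 independent values. In both totals the groups lay apart, but the smallest p that an exact permutation test allows with 2 samples a group is 0.33, and the sums were not tested. By class, the ratio was 1.73 for the 54 ERVs, 1.36 for the 35 non-LTR families and 1.1 for the 21 DNA families.

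Family by family, 30 of 110 (27.3%) were called higher in piwi-sKD,dcr2-sKD and 4 (3.64%) lower. A call was an adjusted p under 0.05 in limma, fitted to log2(normalised count + 1) and adjusted over the 110 families by Benjamini-Hochberg, and 48 families had an unadjusted p under 0.05. Of the higher families, 19 were ERVs, 8 non-LTR and 3 DNA elements, and all 4 lower families were ERVs. By the ratio of group means, 13 of 108 families (12%) were more than 2-fold higher and 2 (1.85%) more than 2-fold lower. The 2 families without a ratio, BS4 and Q, had under 3 reads in every sample. All 13 were among the 30 called, so 17 calls were of changes under 2-fold. The median log2 fold change over the 110 families was 0.24, with 83 families above 0 and 27 below.

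This general shift matters for the smaller changes. When samples were instead aligned on the median of the TE families, in any of 4 ways that took 0.22 to 0.39 off the log2 fold changes, 18 of the 34 calls held in all 4. The higher and lower calls were then 16 and 19, 14 and 17, 23 and 13, and 24 and 11, and the families more than 2-fold higher were 6, 6, 8 and 9. Of the 18 calls that held, the higher were DM412, mdg1, blood, Stalker, Stalker2, Stalker4, springer, gypsy3, gypsy6, copia, mdg3, Tabor, Doc and NOF. The lower were HMS-Beagle2, gypsy5, ZAM and rover. When the summed signal without Tirant was set equal in all samples, which took 1.02 off, 6 families were called higher and 83 lower, 3 were more than 2-fold higher and 27 more than 2-fold lower, and 10 of the 34 calls held, those of DM412, blood, Stalker2, springer, gypsy3, gypsy6 and the 4 lower families. On that last scale 17 of the 30 higher families were on average below their control level, and these 17 were the ones under 2-fold. In the limma fit the prior degrees of freedom came out infinite: the spread behind each p-value was pooled over families at a like level, and the 2 replicates of a single family hardly entered.

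**Figure D1:**
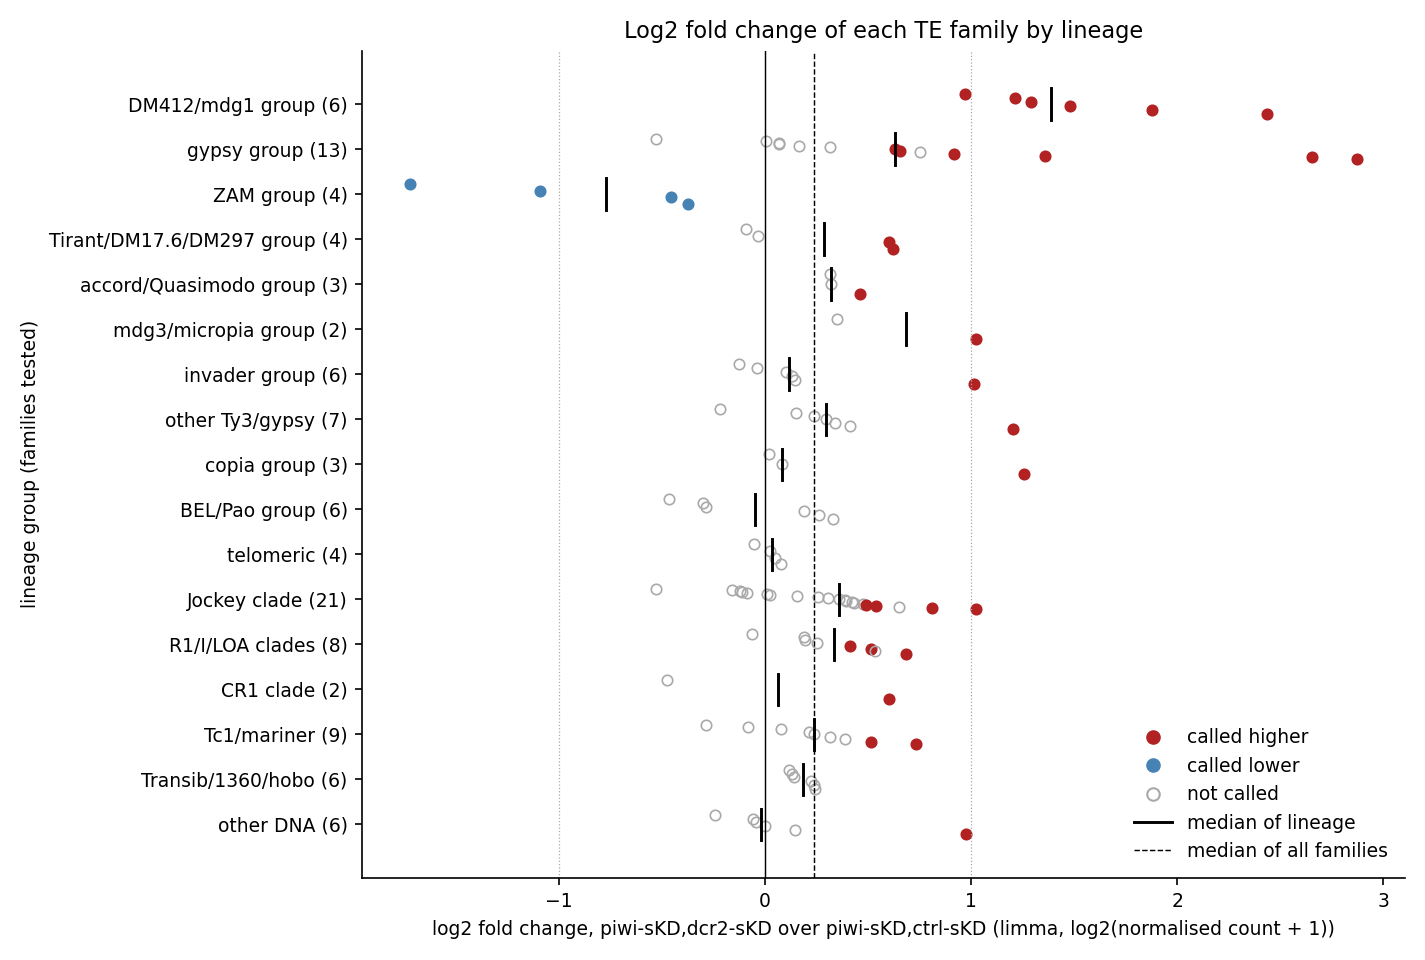
Log2 fold change of each of the 110 families tested (x axis; piwi-sKD,dcr2-sKD over piwi-sKD,ctrl-sKD, limma on log2(normalised count + 1)) by lineage group (y axis, families tested in brackets). Filled points are limma calls, open points are families not called, short bars are lineage medians, the dashed line is the median of all families at 0.24 and dotted lines mark a log2 fold change of 1 in either direction. All 6 families of the DM412/mdg1 group lie on the right and all 4 of the ZAM group on the left, in groups assembled by hand with earlier results known. With the summed signal without Tirant set equal in all samples, the 17 higher families under 2-fold were on average below their control level.

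The plot of log2 fold changes by lineage shows how unevenly the families moved. The lineage groups were assembled by hand from family names with earlier results of these data known, so that a group moving as one is a description of these families and not an independent test. Related families share sequence, and how a read matching several of them was assigned is not stated, so members of a group may share reads. Use of strand in counting is not stated either, and sense and antisense RNA of a family cannot be told apart here.

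The DM412/mdg1 group, Ty3/gypsy-type elements that include DM412, mdg1, blood and the Stalker families, rose in every member. Its sum was 112990 and 98042 normalised counts in piwi-sKD,dcr2-sKD, against 31695 and 25050 in piwi-sKD,ctrl-sKD, a ratio of 3.72. All 6 members were called higher, beside 27.3% of all families, and 5 of them were more than 2-fold higher. The median log2 fold change of the 6 was 1.39, beside 0.24 for all families.

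The retrotransposon DM412 reached 64168 and 54229 normalised counts in piwi-sKD,dcr2-sKD, against 12444 and 9542 in piwi-sKD,ctrl-sKD, 5.39-fold higher (log2 fold change 2.44 ± 0.21, SE; limma adjusted p = 1.41e-23). Both samples with Dcr2 depleted were far above both controls. Stalker2 stood at 13443 and 12292 normalised counts in piwi-sKD,dcr2-sKD, against 3900 and 3133 in piwi-sKD,ctrl-sKD, a ratio of 3.66. Blood had 12046 and 10570 normalised counts in piwi-sKD,dcr2-sKD and 4437 and 3684 in piwi-sKD,ctrl-sKD, a ratio of 2.78. Replicates of these families were close, and the step between groups was several times the gap between replicates. Mdg1 had 18759 and 16392 normalised counts in piwi-sKD,dcr2-sKD and 8632 and 6633 in piwi-sKD,ctrl-sKD, a ratio of 2.30. Stalker had 1576 and 1591 in piwi-sKD,dcr2-sKD and 699.5 and 597.8 in piwi-sKD,ctrl-sKD, a ratio of 2.44. Stalker4, with 2996 and 2968 in piwi-sKD,dcr2-sKD and 1582 and 1460 in piwi-sKD,ctrl-sKD, was the member just short of 2-fold at 1.96. The groups did not overlap for any of the 6, but this did not set them apart. It was also so for many families not called, such as roo, HMS-Beagle, INE-1, Max and Quasimodo.

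The gypsy group, here gypsy itself, gtwin, springer and the numbered gypsy families other than gypsy5, was split. Gypsy5 was placed by hand in the ZAM group, so its lower call is counted there. Gypsy is the family after which these env-carrying errantiviruses, LTR elements able to form virus-like particles, are named. The sum was 39406 and 30233 normalised counts in piwi-sKD,dcr2-sKD, against 14961 and 12918 in piwi-sKD,ctrl-sKD, a ratio of 2.50. Of the 13 families 6 were called higher, beside 27.3% of all families, 0 lower, and 7 were not called.

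Springer had the highest ratio of all families, at 7.35, with 11269 and 9775 normalised counts in piwi-sKD,dcr2-sKD and 1505 and 1359 in piwi-sKD,ctrl-sKD (log2 fold change 2.87 ± 0.15, SE; limma adjusted p = 3.55e-47). Gypsy3 followed at 6.32, with 1035 and 931 normalised counts in piwi-sKD,dcr2-sKD and 166.5 and 144.5 in piwi-sKD,ctrl-sKD. In both families the replicates were close and the groups were several times apart. Gypsy6 had 6270 and 4570 normalised counts in piwi-sKD,dcr2-sKD and 2170 and 2002 in piwi-sKD,ctrl-sKD, a ratio of 2.60. Gtwin had 16504 and 10706 in piwi-sKD,dcr2-sKD and 7768 and 6386 in piwi-sKD,ctrl-sKD, a ratio of 1.92. These last 2 were uneven, with replicate 1 of piwi-sKD,dcr2-sKD well above replicate 2, though even the lower sample was above both controls. Gtwin was not called when samples were centred on the median level of the families, and neither were gypsy12 (ratio 1.54) and gypsy8 (ratio 1.57).

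Gypsy itself was not called. It had 1065 and 818.8 normalised counts in piwi-sKD,dcr2-sKD, against 844.5 and 819.3 in piwi-sKD,ctrl-sKD (log2 fold change 0.17 ± 0.14, SE; limma adjusted p = 0.379), and the groups overlapped. Gypsy2, gypsy4, gypsy7, gypsy9 and gypsy10 were not called either, with limma adjusted p-values from 0.233 for gypsy7 to 0.991 for gypsy4. Gypsy10 had 141.5 and 147.5 normalised counts in piwi-sKD,dcr2-sKD and 121.4 and 156.7 in piwi-sKD,ctrl-sKD, and its small difference turned to below 0 under the 4 median scalings and without piwi-sKD,ctrl-sKD replicate 1. Gypsy11, with 27.0 and 22.9 normalised counts in piwi-sKD,dcr2-sKD and 18.3 and 11.3 in piwi-sKD,ctrl-sKD, lay just outside the threshold (limma adjusted p = 0.0516).

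The ZAM group moved the other way. ZAM is an errantivirus known to be silenced in follicle cells by piRNAs from flam. It was called lower together with gypsy5, rover and HMS-Beagle2, which makes 4 of 4, beside 3.64% of all families. That count rests on gypsy5 and HMS-Beagle2 being placed here by hand, and not with gypsy and HMS-Beagle. As earlier results were known when the group was formed, the count describes these 4 families and tests nothing. Their sum was 5111 and 4488 normalised counts in piwi-sKD,dcr2-sKD, against 8909 and 9676 in piwi-sKD,ctrl-sKD, 1.94-fold lower. The median log2 fold change of the 4 was -0.77.

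HMS-Beagle2 fell most, to 393.9 and 407.3 normalised counts in piwi-sKD,dcr2-sKD, against 1346 and 1305 in piwi-sKD,ctrl-sKD (3.31-fold lower; log2 fold change -1.72 ± 0.14, SE; limma adjusted p = 2.71e-25). Gypsy5 fell to 3002 and 2344 in piwi-sKD,dcr2-sKD, against 5439 and 5876 in piwi-sKD,ctrl-sKD, 2.12-fold lower. Without replicate 2 of piwi-sKD,dcr2-sKD gypsy5 was under 2-fold, which left HMS-Beagle2 as the 1 family more than 2-fold lower. The falls of ZAM and rover were smaller and their groups stood closer. ZAM had 918.1 and 851 normalised counts in piwi-sKD,dcr2-sKD and 1124 and 1308 in piwi-sKD,ctrl-sKD, 1.37-fold lower (log2 fold change -0.46 ± 0.14, SE; limma adjusted p = 0.00451). Rover had 797 and 885.3 in piwi-sKD,dcr2-sKD and 1000 and 1187 in piwi-sKD,ctrl-sKD, 1.30-fold lower (limma adjusted p = 0.025). The call of ZAM was lost without either piwi-sKD,dcr2-sKD sample, leaving 2 lower calls in each case, and rover was lost there and without piwi-sKD,ctrl-sKD replicate 2. Rover was also not called with the replicate block (limma adjusted p = 0.0743) or without the variance trend (limma adjusted p = 0.0928). HMS-Beagle, the namesake of HMS-Beagle2 placed with the other Ty3/gypsy families, was not called, with 4738 and 4629 normalised counts in piwi-sKD,dcr2-sKD and 3974 and 3661 in piwi-sKD,ctrl-sKD.

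**Figure D2:**
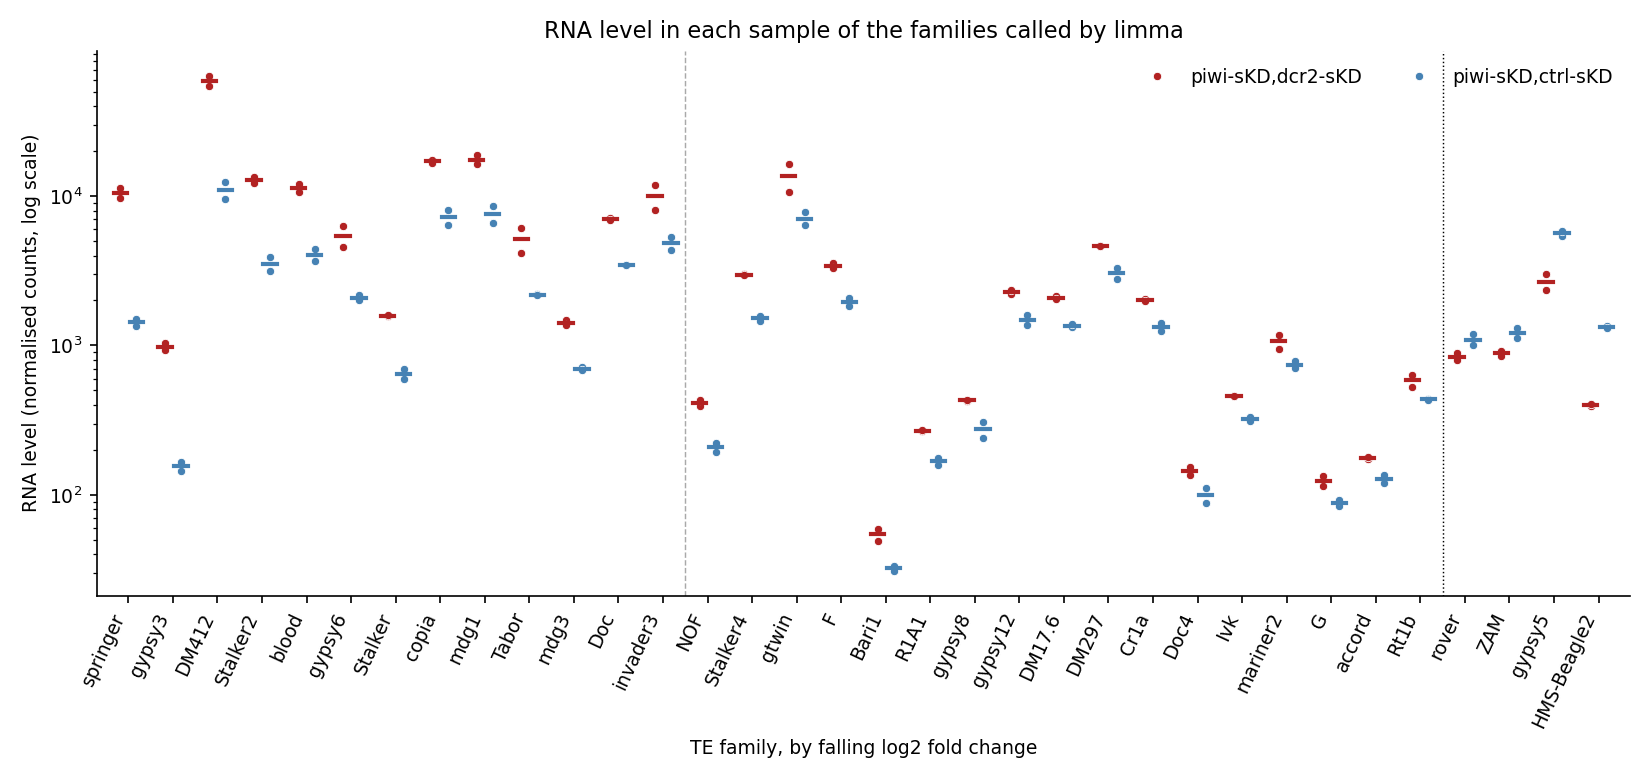
RNA level in each sample of the 34 families called by limma (y axis, normalised counts, log scale), with families on the x axis by falling log2 fold change. Red points are the 2 samples of piwi-sKD,dcr2-sKD, blue points the 2 samples of piwi-sKD,ctrl-sKD, and horizontal bars the group means. Families left of the dashed line were more than 2-fold higher and those right of the dotted line were called lower. Levels span from 31.0 normalised counts in Bari1 to 64168 in DM412. The samples of the 2 groups do not overlap in any of these families, which were chosen by a test on the same values. Many families not called, such as roo, HMS-Beagle, INE-1, Max and Quasimodo, do not overlap either. Of the 30 higher families, the 17 right of the dashed line were on average below their control level when the summed signal without Tirant was set equal.

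Tirant, an env-carrying ERV, was not called. It had 57299 and 63652 normalised counts in piwi-sKD,dcr2-sKD, against 63559 and 65146 in piwi-sKD,ctrl-sKD (log2 fold change -0.09 ± 0.25, SE; limma adjusted p = 0.807), and the groups overlapped. Its relatives DM17.6 and DM297 were called higher at 1.54-fold and 1.51-fold. For DM297 the levels were 4623 and 4601 in piwi-sKD,dcr2-sKD and 3296 and 2793 in piwi-sKD,ctrl-sKD, but neither family was called with samples centred on the median level. Tom1 had 542.8 and 598.5 normalised counts in piwi-sKD,dcr2-sKD and 641.4 and 529.3 in piwi-sKD,ctrl-sKD and was not called.

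In several other ERV groups a single member was called. That was 1 of 3 copia, 1 of 6 invader and 1 of 7 other Ty3/gypsy families. It was also 1 of 2 mdg3/micropia and 1 of 3 accord/Quasimodo families. Over all families 27.3% were called higher, and in groups this small 1 call cannot be told apart from that share. Copia, the founding member of the Ty1/copia elements, rose to 17552 and 16776 normalised counts in piwi-sKD,dcr2-sKD, against 8073 and 6404 in piwi-sKD,ctrl-sKD, a ratio of 2.37. The other members of its group, DM1731 and frogger, had ratios of 1.05 and 1.01 and were not called. Invader3 had 11922 and 8051 normalised counts in piwi-sKD,dcr2-sKD and 5352 and 4384 in piwi-sKD,ctrl-sKD, a ratio of 2.05, while the other 5 invader families had ratios of 0.913 to 1.11. Tabor had 6103 and 4172 in piwi-sKD,dcr2-sKD and 2210 and 2166 in piwi-sKD,ctrl-sKD, a ratio of 2.35, and was the 1 called family of the 7 other Ty3/gypsy families. Invader3 and Tabor shared with gtwin and gypsy6 the higher level in replicate 1 of piwi-sKD,dcr2-sKD. Invader3 was not called with samples centred on the median level of DNA and non-LTR families.

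Mdg3 had 1471 and 1375 normalised counts in piwi-sKD,dcr2-sKD and 713.4 and 683.2 in piwi-sKD,ctrl-sKD, a ratio of 2.04, whereas micropia, the other member of its group, was not called (limma adjusted p = 0.14). Accord rose 1.38-fold, a call lost under each of the median scalings, and accord2 and Quasimodo missed the threshold (limma adjusted p = 0.0624 and 0.0717). The BEL/Pao elements, LTR retrotransposons of another superfamily, had 0 of 6 families called, beside 27.3% of all families called higher. Among them roo had 6339 and 6546 normalised counts in piwi-sKD,dcr2-sKD and 5822 and 5467 in piwi-sKD,ctrl-sKD. Diver2 was just outside the threshold above 0 (limma adjusted p = 0.0516), and rooA and diver had log2 fold changes of -0.30 and -0.29 that were not called.

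Of the 35 non-LTR families, 8 were called higher, beside 27.3% of all families, and 0 lower. Doc alone passed 2-fold. Doc, a jockey-clade element, had 7119 and 6921 normalised counts in piwi-sKD,dcr2-sKD, against 3432 and 3472 in piwi-sKD,ctrl-sKD, a ratio of 2.03 (log2 fold change 1.02 ± 0.15, SE; limma adjusted p = 1.53e-09). Both groups were tight and far apart. The F element had 3545 and 3281 in piwi-sKD,dcr2-sKD and 2064 and 1828 in piwi-sKD,ctrl-sKD, a ratio of 1.75, and Doc4 and G also rose, at 1.45-fold and 1.41-fold. Not called among the 21 jockey-clade families were jockey itself (limma adjusted p = 0.0762), Doc2 (0.0516) and Doc3 (0.432).

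R1A1, which inserts into ribosomal RNA genes, had 268.2 and 270.2 normalised counts in piwi-sKD,dcr2-sKD and 176.2 and 158.6 in piwi-sKD,ctrl-sKD, a ratio of 1.61. Ivk, Rt1b and Cr1a rose 1.43-fold, 1.34-fold and 1.52-fold. The I element, known from hybrid dysgenesis, was not called, with 925.5 and 865.6 normalised counts in piwi-sKD,dcr2-sKD and 754.3 and 810.8 in piwi-sKD,ctrl-sKD. With samples centred on the median level of all families, Doc and F kept their calls and the other 6 non-LTR families lost them, and F lost its call on the median level of DNA and non-LTR families. Some small changes also hung on 1 sample. Accord and Doc4 lost their calls whichever of the 4 samples was left out, G and Rt1b without either piwi-sKD,dcr2-sKD sample or piwi-sKD,ctrl-sKD replicate 1, and Ivk without either piwi-sKD,dcr2-sKD sample. The telomeric elements HeT-A, TART-A, TART-B and TAHRE, which maintain fly chromosome ends, had ratios of 0.985 to 1.06. Of these, 0 of 4 were called, beside 27.3% of all families called higher.

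Among DNA elements NOF, which is carried inside some foldback (FB) elements, changed most, with 391.1 and 429.1 normalised counts in piwi-sKD,dcr2-sKD and 222.4 and 194.3 in piwi-sKD,ctrl-sKD, a ratio of 1.97 (limma adjusted p = 1.03e-08). FB was not called, at 2958 and 2987 in piwi-sKD,dcr2-sKD and 3262 and 2936 in piwi-sKD,ctrl-sKD. The Tc1/mariner elements mariner2 and Bari1 were called at 1.43-fold and 1.69-fold, and neither held under the median scalings. Without piwi-sKD,dcr2-sKD replicate 2 neither was called, and Bari1 was also lost without either piwi-sKD,ctrl-sKD sample. Tc3 of the same group was just outside the threshold (limma adjusted p = 0.0508). The 6 families of the Transib and hobo group had ratios of 1.08 to 1.18. Of these, 0 were called, beside 27.3% of all families called higher.

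For the 2-fold limit, the families just inside were Doc at 2.03, mdg3 at 2.04 and invader3 at 2.05, and those just outside were NOF at 1.97, Stalker4 at 1.96 and gtwin at 1.92. The 30 families called higher together had 210468 and 179372 normalised counts in piwi-sKD,dcr2-sKD, against 75418 and 63043 in piwi-sKD,ctrl-sKD, a ratio of 2.82. The 75 families tested and not called, Tirant left aside, had 46921 and 46742 in piwi-sKD,dcr2-sKD and 45059 and 41326 in piwi-sKD,ctrl-sKD, a ratio of 1.08. The families were sorted by a test on these same values, so a gap between the 2 ratios was fixed by the sorting and is no result of its own.

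The excess was concentrated in few families. Of the net difference of 120957 normalised counts between the group means, DM412 accounted for 39.9%, and mdg1, copia, Stalker2 and springer for 7.51% to 8.22% each, so that these 5 made up 71.5%. With blood, gtwin, invader3 and Doc the sum reached 90.1%. By lineage, the DM412/mdg1 group made up 63.8% and the gypsy group 17.3%. The 8 non-LTR and 3 DNA families called higher made up 5.12% and 0.451%. Counts are not divided by length, so a longer element weighs more in these sums.

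**Figure D3:**
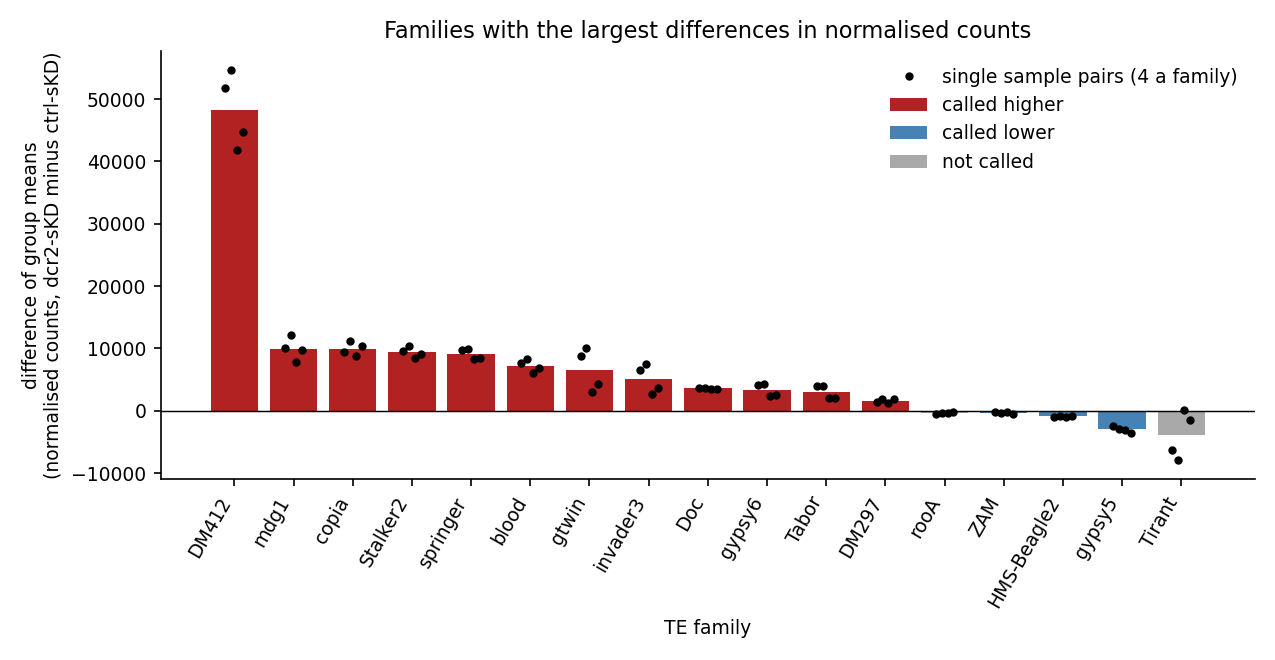
Difference between the group means in normalised counts (y axis, piwi-sKD,dcr2-sKD minus piwi-sKD,ctrl-sKD; bars) for the 12 families with the largest positive and the 5 with the largest negative differences (x axis), with black points for the 4 pairs of single samples. Red bars were called higher by limma, blue bars lower, and grey bars were not called. The bar of DM412 is several times as high as any other, and for Tirant the points lie on both sides of 0.

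Shares of the summed signal in each sample were then compared, since they do not depend on size factors. They are tied to one another, as a gain of one family lowers the rest, and they were not tested. The DM412/mdg1 group held 35.3% and 33.3% of the TE signal in piwi-sKD,dcr2-sKD, against 16.4% and 14.0% in piwi-sKD,ctrl-sKD. The share of Tirant was 17.9% and 21.6% in piwi-sKD,dcr2-sKD and 32.9% and 36.4% in piwi-sKD,ctrl-sKD, although its normalised counts overlapped between the groups. That of the ZAM group was 1.60% and 1.53% in piwi-sKD,dcr2-sKD, against 4.62% and 5.40% in piwi-sKD,ctrl-sKD.

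With Tirant left out of the total, the DM412/mdg1 group still held 43.0% and 42.5% in piwi-sKD,dcr2-sKD, against 24.5% and 22.0% in piwi-sKD,ctrl-sKD. The gypsy group held 15.0% and 13.1% in piwi-sKD,dcr2-sKD, against 11.6% and 11.3% in piwi-sKD,ctrl-sKD. The copia group gained less, with 6.76% and 7.37% in piwi-sKD,dcr2-sKD and 6.41% and 5.78% in piwi-sKD,ctrl-sKD. The BEL/Pao group, whose counts had a ratio of 1.06, went the other way on this scale, with 3.93% and 4.63% in piwi-sKD,dcr2-sKD and 7.83% and 8.42% in piwi-sKD,ctrl-sKD. So did the jockey clade, although its counts rose with a ratio of 1.47. Its share was 6.46% and 7.17% in piwi-sKD,dcr2-sKD and 9.10% and 9.59% in piwi-sKD,ctrl-sKD.

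**Figure D4:**
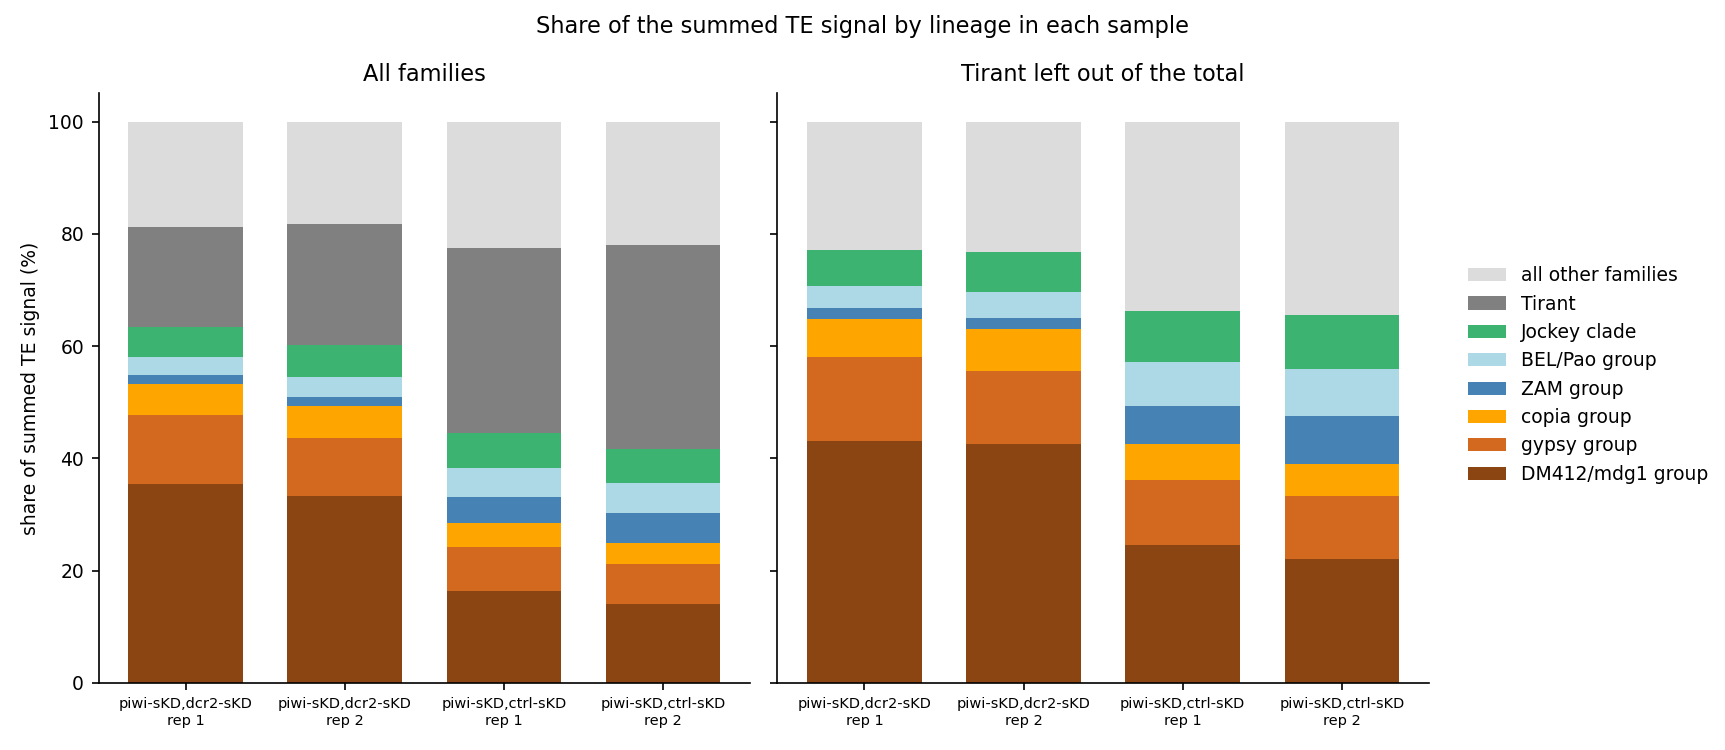
Share of the summed TE signal (y axis, percent) by lineage in each of the 4 samples (x axis), with all families (left panel) and with Tirant left out of the total (right panel). The DM412/mdg1 group, at the foot of each bar, takes 33.3% to 35.3% in piwi-sKD,dcr2-sKD and 14.0% to 16.4% in piwi-sKD,ctrl-sKD in the left panel, and the ZAM and BEL/Pao groups are narrower in piwi-sKD,dcr2-sKD in both panels.

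Few families gained share. Of 110 families, 15 (13.6%) had both piwi-sKD,dcr2-sKD samples above both controls in their share of the whole, and without Tirant 9 of 109 (8.26%) did. The 9 were DM412, mdg1, blood, Stalker, Stalker2, springer, gypsy3, gypsy6 and copia. Of the 13 families over 2-fold, Doc, mdg3, invader3 and Tabor were thus not separated between groups on this scale. Without Tirant, the 5 largest families of each sample held 49.7% and 47.9% of the signal in piwi-sKD,dcr2-sKD, against 33.0% and 30.6% in piwi-sKD,ctrl-sKD.

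The families were looked up in the reference annotation (BDGP6.54), where 108 of them matched annotated insertions by name. It describes the reference strain and not the flies sequenced, which may carry other insertions. In this build flam spans chromosome X from 21631891 to 21790731 on the plus strand. Of the 13 families more than 2-fold higher, 9 had at least 1 insertion overlapping flam, against 9 of the 74 families not called. Among ERVs alone the counts were 8 of 12 over 2-fold, 2 of 7 called higher under 2-fold, 2 of 4 called lower and 4 of 31 not called. Over all families matched, 16 of 54 ERVs and 8 of 54 other families had such an insertion. These counts describe the lists and were not tested.

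The ERVs over 2-fold with a flam insertion were DM412, mdg1, blood, Stalker, Stalker2, springer, gypsy3 and gypsy6, and those without one were copia, invader3, mdg3 and Tabor. Of the 21 flam insertions of these 8 families, 18 lay on the strand opposite to flam, beside 32 of 36 for all ERVs. The longest annotated insertion of springer is itself one of them, on chromosome X from 21723964 to 21731592 on the minus strand, and overlaps no exon of flam. That of gypsy6 lies within an intron of Dbp80 on chromosome 3L, from 27370557 to 27378210. That of copia, one of 39 annotated copies, lies outside genes on chromosome 2L from 20157413 to 20164268. The lower families ZAM and gypsy5 each have 1 insertion in flam, so such an insertion was found in families that moved either way.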

How the data were processed

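PolyA-enriched RNA from pooled Drosophila ovaries was sequenced by the authors. Per the methods and the submitters' processing notes, reads were trimmed with UrQt, genes were aligned with TopHat2 and counted with eXpress, and TE reads were counted with TEcount of TEtools against copies of the reference genome. The authors then divided counts by DESeq2 1.10 size factors, estimated over genes and TEs together, and deposited this signal. The 2 tables have separate size factors, so comparisons stayed within 1. All 8 value columns were mapped to samples and 0 were left out. Within each sample, 100% of values proved to be whole multiples of one step (tolerance 1e-06 of a read), from which reads and size factors were derived.

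Values were tested with limma 3.58.1 (lmFit, eBayes with trend) in R 4.3.3 on log2(value + 1), two-sided, a scale that understates changes of low families. The script was tested on simulated data. Ratios of means used no pseudocount. Members, lineage groups and lists were chosen with earlier results of these data known. Named were all families called or past 2-fold, 8 families of the study's small RNA analysis, the highest family of each lineage, and families near a threshold; others, such as FB and jockey, were chosen after their values were seen.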

Additional observations from a re-analysis of the deposited data

How the results depend on the processing

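Of 504 log2 fold changes recomputed for 36 named families under the alternatives other than the equal sum without Tirant, which was listed for counts of families only, 428 kept direction and side of the threshold, 71 became weaker, 0 became stronger and 5 reversed. All 5 of these reversals were of gypsy10: -0.30 and -0.32 with samples centred on the median level of all families or of DNA and non-LTR families, -0.18 and -0.15 with the matching median ratios (chosen after seeing the data), and -0.12 without piwi-sKD,ctrl-sKD replicate 1 (-0.12 to 0.25 over the samples left out in turn). On the equal sum, 17 of the 30 higher families were on average below their control level. The cause was not tested.

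Under the median level of all families, of DNA and non-LTR families, and the equal sum without Tirant, limma called 16, 14 and 6 families higher and 19, 17 and 83 lower, and 6, 6 and 3 were more than 2-fold higher. With the equal sum 27 were more than 2-fold lower. With the median ratio over all families or over DNA and non-LTR families, lower calls were 13 and 11, and 8 families were more than 2-fold higher with the first. These follow from subtracting a common shift. Leaving out one replicate in turn gave 23 to 29 higher calls, 2 to 5 lower calls, and 1 to 2 families more than 2-fold lower, the lone sample being assumed to vary like the others. Pseudocounts, the filter at a mean of 10 and the variance models gave 31 to 37 higher calls.

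Replicate numbers are shared between the groups but mark no stated pairing (correlation of same-numbered deviations 0.250 over 105 families). With the replicate block 33 families were higher and 3 lower, of which 30 and 3 were among the calls without it, and rover was lost.

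Tests on read counts with 2 tools and 2 normalisations were listed as alternatives and not run. All values came out as whole reads once multiplied by the size factors derived here, but too few families had low values for that to be checked on low values alone, so the deposited values were treated as normalised signal. With 2 replicates a group, families near the floor of 3 reads cannot show changes.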

Other observations

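The first table of the series holds another fly line in which piwi alone was targeted (piwi-sKD at 25°C, no-KD at 20°C). It was normalised separately, so its values are set beside those above with no test across tables. The families with the highest ratios with Dcr2 depleted, springer and gypsy3, had smaller ones there: springer had 493.8 and 592.1 normalised counts in piwi-sKD against 159.6 and 129.2 in no-KD (3.76-fold), and gypsy3 83.7 and 110 in piwi-sKD against 63.6 and 42.4 in no-KD (1.82-fold). ZAM and gypsy5, lower with Dcr2 depleted, had piwi-sKD over no-KD ratios of 41.5 and 30.5. HMS-Beagle2 and rover, also lower with Dcr2 depleted, had smaller piwi-sKD over no-KD ratios of 8.86 and 2.003. Both were below that of copia, a family called higher. Tabor and Doc, like springer and gypsy3, had smaller ratios there: 1.46 against 2.35 with Dcr2 depleted for Tabor, and 1.59 against 2.03 for Doc. The remaining families more than 2-fold higher had larger ratios in that table. Among them, DM412 had 7.27 there and 5.39 with Dcr2 depleted, copia 14.4 and 2.37, and blood 8.02 and 2.78. Tirant had 173.6 and 97.4 normalised counts in piwi-sKD of that line, against 98.1 and 123.1 in no-KD, while the 4 double knockdown samples ran from 57299 to 65146.

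Replicate 1 of piwi-sKD,dcr2-sKD was above replicate 2 by more than 0.4 on the log2 scale in gtwin (0.62), invader3 (0.57), Tabor (0.55) and gypsy6 (0.46), all called higher. The remaining 5 of the 9 families that differed by that much were Helena, jockey2, looper1, transib1 and TAHRE, none of them called. The median signed difference between these replicates over 105 families was 0.01.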
